A study of Mus musculus with 4 samples.

Results

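The immunoglobulin heavy chain locus (Igh) was examined for binding of Rad21 in pro-B cell lines transformed by v-Abl from mice, with and without 53BP1. Rad21 peaks lying fully between 114.4 and 117.3 Mb of chromosome 12 (mouse build mm9) were taken from 4 peak lists, and touching or overlapping peaks were joined to form regions. This gave 140 Igh regions of 34743 over the 19 autosomes and X. The study comprised 2 wild-type libraries (WT 1 and WT 2) and 2 libraries of 53BP1 knockout cells (knockout 1 and knockout 2). Both genotypes lacked RAG1, carried an Emu-Bcl2 transgene and had been treated with 3 uM STI-571 for 4 days. No label states that replicate libraries were grown apart or derived from different clones, so p-values measure only the spread between these libraries, which may be technical. The labels also name no mouse strain. By its name the transgene carries the Igh enhancer Emu, so Emu sequence from the transgene and from the locus cannot be told apart in these lists. The antibody is Rad21 in the sample titles and in the protocol, while the treatment label of every sample names a 53BP1 antibody, and the titles were followed.

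Rad21 is a subunit of cohesin, the ring complex that extrudes chromatin loops and is halted at sites bound by CTCF. In developing B cells, loop extrusion carries the V segments of Igh to a recombination centre at the J segments, where RAG joins D to J and then V to DJ. The order of the locus on the chromosome is a group of CTCF sites and enhancers at its 3' end, the constant genes, the J and D segments, the regulatory element IGCR1 (a pair of CTCF sites that keeps V segments away from the D segments), and then the V segments from proximal to distal. The v-Abl oncogene, a viral tyrosine kinase, keeps B cell progenitors growing in culture, and STI-571 inhibits it so that the cells arrest. Without RAG1 the locus cannot be cut, so its germline order is kept. 53BP1 is a chromatin-bound factor that acts in the repair of DNA double-strand breaks. The RefSeq gene table (assembly GRCm38.p6, used for names only) lists 215 Igh segments on chromosome 12, among them 8 constant genes, 4 J segments, 20 D entries counted as 10 segments and 10 pseudogenes, and 183 V entries counted as 120 segments and 63 pseudogenes. The largest V family, V1, has 92 entries, followed by V5 with 21 and V8 with 16. No annotation of mm9 was used here, so no region is assigned to a gene, a V segment, an enhancer or a CTCF site, and no sequence is shown.

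Rad21 occupied Igh densely in every library. WT 1 and WT 2 each had 108 peaks in the window, knockout 1 had 103 and knockout 2 had 114. The counts of the knockout libraries lay on either side of the WT count. The mean was 108 ± 0 in WT and 108.5 ± 7.78 in knockout cells (SD, n = 2 each), a difference of 0.5 peaks (two-sided exact permutation test, p = 1, Benjamini-Hochberg adjusted over 5 measures of the locus p = 1). With 2 libraries against 2, this test cannot give a p below 0.333. Scaled to 1000 peaks of each list, Igh held 4.92 and 4.69 peaks for WT and 4.10 and 5.00 in knockout libraries, again with the WT values between the others. Igh peaks covered 54.7 and 56.4 kb in WT, 54.9 kb in knockout 1 and 77.5 kb in knockout 2. Only knockout 2 stood apart in covered length (exact permutation p = 0.667), and without it the difference between the genotypes was −0.611 kb in place of 10.7 kb.

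Knockout 2 had wider peaks than the other 3 libraries, in Igh as in its whole list. The median width over all peaks of a list was 512 and 509 bp in the WT lists, 476 bp in knockout 1 and 564 bp in knockout 2, and knockout 2 was also widest in the Igk and the Tcra and Tcrd windows described at the end. At the 77 Igh regions with exactly 1 peak in each library, the median peak was 518 bp wide in WT 1, 534 bp in WT 2, 530 bp in knockout 1 and 672 bp in knockout 2. The difference of 75 bp between the genotypes (exact permutation p = 0.667) became −1.5 bp without knockout 2. The highest fold enrichment in Igh was 7.91, 7.13 and 7.28 in the first 3 libraries and 5.28 in knockout 2. Fold enrichment here is the authors' own value, the ratio of a peak's signal to the background that their peak caller estimated for it, and belongs to one list. Because the median fold of the lists ran from 3.67 in knockout 2 to 4.15 in knockout 1, folds are given below with their percentile among all peaks of the same list. A percentile ranks a peak within its list, and a difference of percentiles between lists of different length does not show a change of binding.

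**Figure D1:**
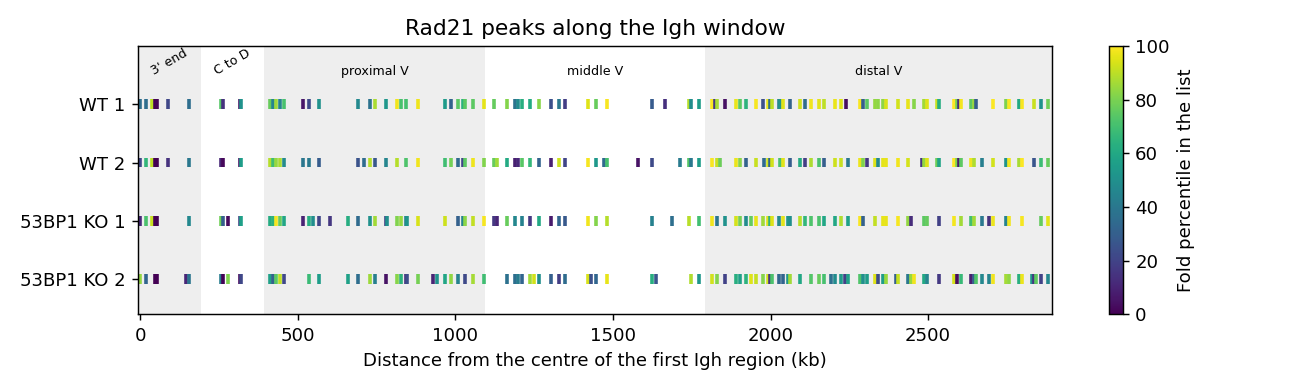
Rad21 peaks of the 4 libraries (rows) along the Igh window, by distance in kb from the centre of the first region, with shading for the 5 parts of the locus and colour for the percentile of a peak's fold in its own list. Peaks were frequent in distal V, where high percentiles dominated, and stretches without a peak lay on both sides of the part from the constant genes to IGCR1 and inside middle V.

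Most Igh regions recurred between libraries. Of the 140 regions, 79 (56.4%) were called in all 4 libraries, against 41.7% of the regions of all chromosomes. A further 19 were called in 3 libraries, 14 in 2 and 28 (20.0%) in a single one, where 30.7% of all regions were single. The single-library regions came from knockout 2 in 12 cases (8.57%, against 9.13% of all regions) and WT 2 in 7 (5%, against 6.06%). Knockout 1 gave 5 (3.57%, against 10.9%) and WT 1 gave 4 (2.86%, against 4.60%). Regions missing from 1 library alone were missing from knockout 1 in 7 cases (5%, against 2.54% of all regions). They were missing from knockout 2 in 6 (4.29%, against 5.49%), WT 2 in 4 (2.86%, against 2.56%) and WT 1 in 2 (1.43%, against 2.97%). The WT pair shared 82.1% of the Igh regions called in either library, the knockout pair 72.8%, and the 4 pairs of different genotype 67.9 to 74.2%. At the 79 regions of all libraries, the centres of the peaks of a pair of libraries lay a median of 54.5 to 99.5 bp apart. The ranks of the fold over these 79 regions had Spearman correlations of 0.74 to 0.78 among WT 1, WT 2 and knockout 1 and of 0.53 to 0.60 for the pairs with knockout 2. These correlations run over sites that share library, caller and local sequence, and are given as a description. Over the 14484 regions called in all libraries on all chromosomes the same correlations were 0.57 to 0.60 and 0.46 to 0.51.

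The 5 parts of the locus differed in how densely they were occupied. Distal V (above 116.2 Mb) held the most regions, 69, or 62.7 per Mb. The 3' end (below 114.6 Mb) had 9 regions (45 per Mb), proximal V (114.8 to 115.5 Mb) had 31 (44.3 per Mb) and middle V (115.5 to 116.2 Mb) had 26 (37.1 per Mb). The part from the constant genes to the D and J segments and IGCR1 (114.6 to 114.8 Mb) had the fewest, 5, or 25 per Mb. Distal V had the highest peak density in each library, with 49.1 and 46.4 (WT) and 42.7 and 52.7 (knockout) peaks per Mb. Middle V had 25.7 and 30 (WT) and 24.3 and 25.7 (knockout) peaks per Mb, and the part from the constant genes to IGCR1 had 20 and 20 against 25 and 25. The 2 sparsest parts therefore overlapped in their densities. Regions of all 4 libraries made up 80% of the regions between the constant genes and IGCR1 (4 of 5), 66.7% at the 3' end (6 of 9), 61.3% in proximal V (19 of 31), 53.6% in distal V (37 of 69) and 50% in middle V (13 of 26), all above the 41.7% of all chromosomes.

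**Figure D2:**
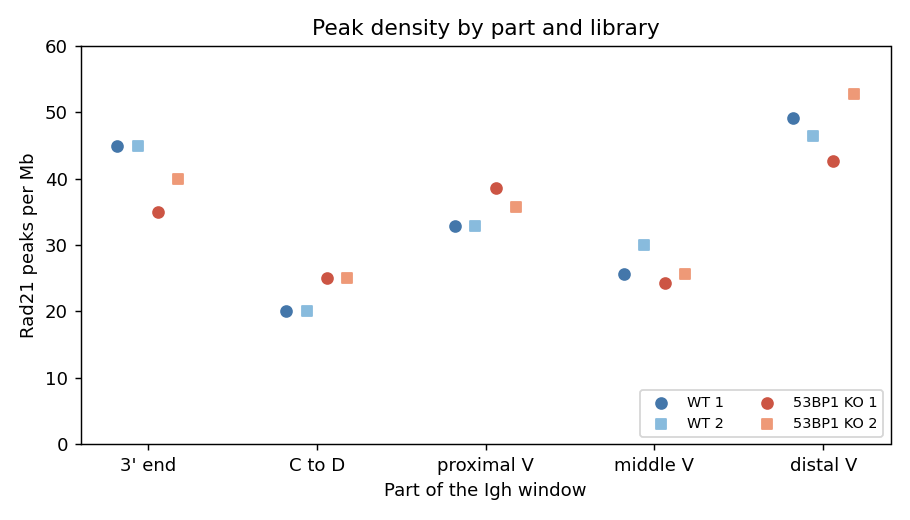
Rad21 peaks per Mb (vertical axis) in the 5 parts of the Igh window (horizontal axis), 1 point per library, blue for WT and red for 53BP1 knockout, circles for replicate 1 and squares for replicate 2. Distal V was densest in each library, and from WT to knockout both points were lower at the 3' end and higher in C to D (the constant genes to IGCR1) and proximal V.

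Neighbouring regions lay a median of 15.3 kb apart. Of the 139 stretches between them, 8 were under 2 kb and 7 over 50 kb. The longest stretch without a region in any library, 102.5 kb, ran from 114560078 to 114662545, across the border between the 3' end and the next part. Where single constant genes lie relative to it was not examined. A stretch of 89.8 kb separated the last region before proximal V, ending at 114726394, from the first region of proximal V at 114816151. Middle V held stretches of 97.7 kb after 115889395 and 69.1 kb after 115756174, and proximal V one of 59.1 kb after 114864170. In distal V no stretch exceeded 45.4 kb. The longest run of neighbouring regions that were all called in 4 libraries counted 7 regions over 140.9 kb, from 114723252 to 114864170, and so spanned the stretch of 89.8 kb before proximal V. A run of 5 lay in middle V from 115672664 to 115826166. No run counted 4 or 6, and 9 runs tied at 3 regions, 5 of them in distal V, 2 in proximal V, 1 at the 3' end (114454151 to 114461456) and 1 across the border of the 3' end with the next part. The V parts together held 126 regions, 69 of them in all 4 libraries, fewer than the 183 V entries named in the RefSeq table.

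The 3' end, where the 3' CTCF elements and 3' enhancers of Igh are known to lie, held regions of both high and very low fold. Its highest folds were those of 114443649 to 114444183, with 5.41 in WT 1, 5.28 in WT 2 and 5.82 in knockout 1, at percentiles of 90.2, 90.2 and 91.8 and a −log10 q of 5.55 to 7.35. Knockout 2 had no peak there, so this region is not among those shared by all libraries. The lowest folds belonged to 3 closely spaced regions nearby. The widest region of the whole window, 3193 bp, lay at 114458264 to 114461456. Its folds were 2.84 and 2.41 (WT) and 2.54 and 2.43 (knockout), at percentiles 0.831 and 0.111 (WT) and 0.121 and 0.318 (knockout). The −log10 p of the same peaks was 11.1 and 7.01 (WT) and 9.15 and 9.53 (knockout), at percentiles 90.6 and 64.1 (WT) and 82.1 and 91.5 (knockout). All 4 libraries thus placed this region among their lowest folds and above the middle of their significance, with the genotypes overlapping. The 2 regions beside it, at 114454151 to 114454519 and 114455526 to 114456368, had folds of 2.04 to 2.69, at percentiles of 0.0152 to 0.398. Their −log10 p of 4.17 to 7.22 fell at percentiles of 13.2 to 66.3.

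The other 3 shared regions of the 3' end varied in rank between libraries. Strongest by the lowest of its 4 percentiles was 114558966 to 114560078, with folds of 3.83 and 3.87 (WT) and 4.07 and 3.51 (knockout) and percentiles of 35.9 to 46.8. Next came 114425442 to 114426585, with folds of 3.83, 4.40, 4.74 and 3.43 in WT 1, WT 2, knockout 1 and knockout 2, at percentiles of 35.4, 65.7, 71.3 and 32.3. The region nearest the edge of the window, 114406306 to 114406865, had 3.84, 3.53, 3.35 and 4.35 in the same order, at percentiles of 36.1, 21.0, 11.0 and 83.7, so knockout 2 was highest there and knockout 1 lowest. The last region before the window, 5.36 kb below its edge, and the first after it, 8.41 kb above, were likewise called in all 4 libraries, so occupancy did not end at the edges of the window.

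Between the constant genes and IGCR1, each of the 4 shared regions had a significance that ranked above its fold in each library. Over the shared regions of all chromosomes the median percentile was likewise higher for −log10 p than for fold. It was 64.6 and 66.5 against 60.8 and 62.9 in the WT lists, and 69.2 and 64.9 against 66.6 and 58.8 in the knockout lists. How many of those regions ranked so in every library was not counted. The region at 114662545 to 114663466 had folds of 4.67 and 3.34 (WT) and 5.00 and 3.56 (knockout). Its −log10 p was 14.4 and 6.98 (WT) and 17.7 and 11.4 (knockout), the highest value of all 79 shared Igh regions in knockout 1. The first library of each genotype was thus higher than the second in both measures, and the genotypes overlapped. The region at 114668295 to 114669332, the widest of this part with 1038 bp, was weaker, with folds of 3.45, 2.98, 3.73 and 2.56 in WT 1, WT 2, knockout 1 and knockout 2.

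Toward the V segments a pair of regions followed with centres 2.45 kb apart. The second of them, at 114725745 to 114726394, had folds of 4.12 and 4.17 (WT) and 4.31 and 3.28 (knockout), at percentiles 51.0, 55.4, 56.5 and 21.4. Its −log10 p was 10.6 and 10.5 (WT) and 10.7 and 8.95 (knockout), at percentiles of 87.8 to 89.1. The first of them, at 114723252 to 114723991, had folds of 3.21, 3.16, 3.52 and 2.76 with percentiles of 2.17 to 18.7, and −log10 p percentiles of 56.6 to 69.7. Every library called both regions, and knockout 2 had the lowest fold at each. IGCR1 is assigned to this part of the locus, and whether the pair lies on it was not tested.

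For each peak, −log10 p was divided by the median −log10 p of the peaks in the same list whose fold lay within 0.1. In the part from the constant genes to IGCR1 the median ratio over the 4 shared regions was 1.79 and 1.70 (WT) and 1.80 and 1.80 (knockout). Single regions of this part ran from 0.86 to 2.36, both in knockout 2. Over the 6 shared regions of the 3' end the median was 1.03 and 0.98 (WT) and 1.06 and 1.14 (knockout). Single regions there ran from 0.61 to 2.62, both in WT 1. In proximal, middle and distal V the median was 0.90 to 0.97 in WT and knockout 1 and 1.13 to 1.20 in knockout 2. Of all peaks, 6.23 and 5.74% in the WT lists and 4.19 and 7.84% in the knockout lists reached a ratio of 1.5. The Igh peaks that reached it numbered 6 and 4 in WT, 5 in knockout 1 and 9 in knockout 2. These were 5.56 and 3.70% of the Igh peaks in WT and 4.85 and 7.89% in the knockout libraries, near the shares of all peaks. In WT and knockout 1 all of them lay below 114.8 Mb, and in knockout 2 it was 4 of 9, with 1 in middle V and 4 in distal V. The lists hold no read counts, so the reads behind these peaks are unknown.

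**Figure D3:**
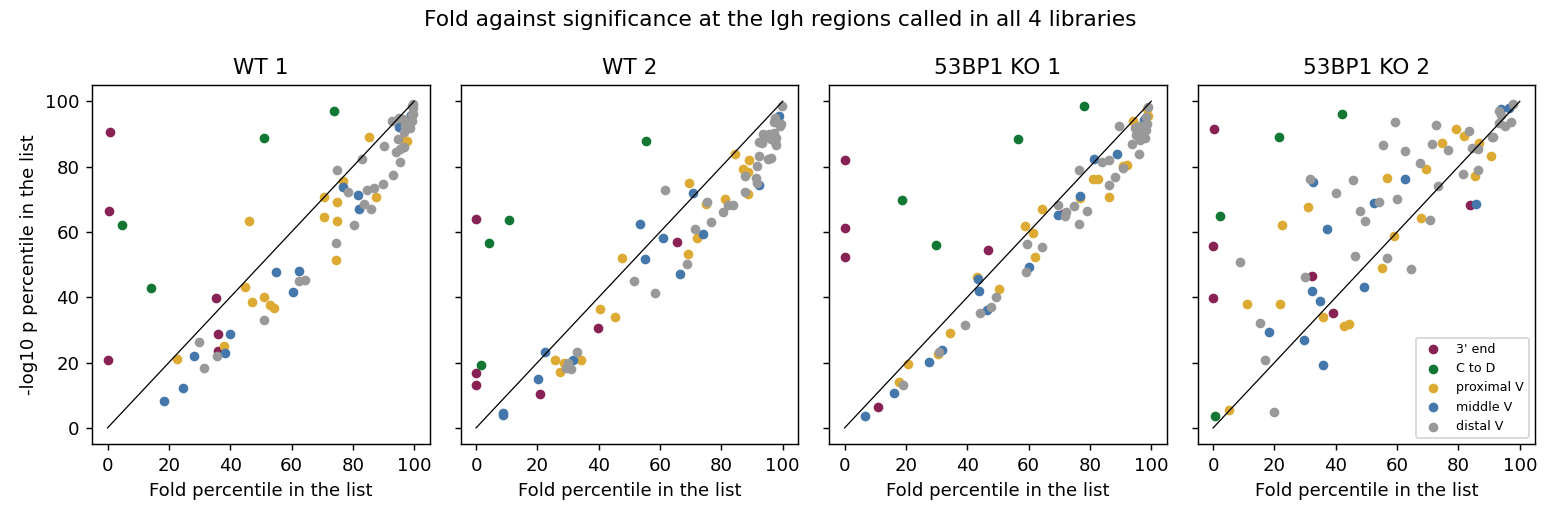
Percentile of −log10 p (vertical axis) against percentile of fold (horizontal axis), each within its own list, at the 79 Igh regions called in all 4 libraries, 1 panel per library and 1 colour per part; the line marks equal percentiles. The 4 points of the part from the constant genes to IGCR1 (C to D) lie above the line in every panel. So do 3 of the 6 points of the 3' end, whose fold percentiles of 0.0152 to 0.831 leave almost no room below the line. In knockout 2 many V regions lie above the line as well.

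Distal V held the highest folds of the locus. The median percentile of fold over shared regions was 70.7 and 72.1 (WT) and 64.4 and 56.7 (knockout) for proximal V. It was 60.6 and 55.0 (WT) and 46.4 and 37.0 (knockout) for middle V, and 93.0 and 91.7 against 86.2 and 67.4 for distal V. Distal V ranked first, proximal V second and middle V next in each of the 4 libraries. The part from the constant genes to IGCR1 had 32.6, 7.44, 43.2 and 11.8, and the 3' end 18.1, 10.5, 5.60 and 16.3, in the order WT 1, WT 2, knockout 1 and knockout 2, so these 2 parts overlapped. By the percentile of −log10 p, distal V again ranked first, with 84.4, 80.3, 79.5 and 78.9. The part from the constant genes to IGCR1 then had 75.4, 60.2, 79.1 and 77.0, the second rank in WT 1, knockout 1 and knockout 2 but below proximal V in WT 2. Distal V therefore ranked first by both measures, while the place of the part from the constant genes to IGCR1 depended on the measure.

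In proximal V, which holds the V segments nearest to the D segments, the strongest shared region by its lowest percentile was 115219497 to 115220378. It had folds of 6.32 and 5.20 (WT) and 5.13 and 4.30 (knockout), at percentiles of 81.2 to 97.7. The next, 115285738 to 115286759, had folds of 6.25, 6.15, 6.05 and 4.22, with WT 1, WT 2 and knockout 1 close together and knockout 2 lower. After it came 115460500 to 115461693 with folds of 4.71, 6.07, 5.73 and 4.46. The first region after the stretch without peaks, at 114816151 to 114817322, was the first of 5 neighbouring shared regions that ended at 114864170. The widest proximal region, 1594 bp at 115495156 to 115496749, was as wide as the peak of knockout 2, 1594 bp, against 341, 515 and 250 bp in WT 1, WT 2 and knockout 1.

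Middle V was uneven. Its 2 strongest shared regions lay at 115825276 to 115826166 with folds of 5.87 and 6.44 (WT) and 6.70 and 4.82 (knockout), and 115888478 to 115889395 with 6.83 and 4.53 against 5.58 and 5.07. Their percentiles were 93.9 to 98.8 and 70.9 to 98.9. Next in strength, 116177795 to 116178427, was weaker, with percentiles of 52.5 to 69.7. Between 115889395 and 116177795 lay the stretch of 97.7 kb without a region and a single region called in all libraries, at 116028940 to 116030025. The widest shared region of middle V was 1444 bp, at 115616888 to 115618331.

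Distal V contained 14 of the 20 Igh regions that reached a −log10 q of 5 in every library, while proximal V contained 3, middle V 2 and the part from the constant genes to IGCR1 1. These 20 were 25.3% of the 79 shared Igh regions, against 16.2% of shared regions on all chromosomes. In WT 1 and WT 2 the highest fold of the window belonged to 116987751 to 116988584, with folds of 7.91 and 7.13 (WT) and 6.86 and 4.81 (knockout). Its −log10 p was 18.0 and 16.2 (WT) and 13.5 and 11.1 (knockout), both WT values above both knockout values. In knockout 1 it was 7.28 at 116690672 to 116691587, where WT 1 had 6.998, WT 2 5.97 and knockout 2 4.07. The region at 117110661 to 117111684, highest in knockout 2, had folds of 7.48, 5.53, 6.54 and 5.28 and −log10 p values of 15.5, 10.4, 12.1 and 14.8, with no such separation. Of all Igh regions, 117205765 to 117206315 kept the highest minimum rank, with percentiles of 97.0 to 99.4. The widest distal region was 1847 bp, at 117040778 to 117042624, and again knockout 2 gave the widest peak there, 1847 bp against 489 to 950 bp.

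Peak numbers of the genotypes were then compared within each part. At the 3' end the libraries had 9 and 9 peaks for WT and 7 and 8 in knockout cells, and both knockout counts were lower. From the constant genes to IGCR1 they had 4 and 4 against 5 and 5, and in proximal V 23 and 23 against 27 and 25, both knockout counts being higher. For these 3 differences, −1.5, 1 and 3 peaks, the exact permutation test gave its minimum p of 0.333, adjusted over the 5 parts to 0.556. Middle V had 18 and 21 peaks for WT and 17 and 18 in knockout cells (exact permutation p = 0.667, adjusted p = 0.833), and distal V 54 and 51 against 47 and 58 (p = 1). In distal V the mean was 52.5 in both genotypes, while knockout 1 lay below and knockout 2 above both WT libraries. When peaks under a −log10 q of 5 were left out, the difference was 0.5 peaks at the 3' end and −0.5 in proximal V. Both were opposite in sign to the differences over all peaks. In distal V it was then −5 peaks, where the exact permutation test gave its minimum p of 0.333. Of the whole lists, 27.0 and 27.7% (WT) and 25.9 and 16.5% (knockout) of the peaks reached this level, the least in knockout 2. Scaled to 1000 peaks of the lists so cut, the difference over the whole Igh window was 0.55 peaks, opposite in sign.

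Regions that followed genotype were few. In Igh, 6 regions were knockout-only, called in knockout 1 and knockout 2 alone (4.29% of 140, against 3.05% of all regions), and 4 were WT-only, called in WT 1 and WT 2 alone (2.86%, against 2.19%). Both shares were near those of all chromosomes. For comparison, 4 Igh regions were called in 1 WT and 1 knockout library only. Each such pair of libraries held 0 to 1.43% of the Igh regions, against 1.36 to 2.90% of all regions. Pairs of different genotype were thus scarcer in Igh than on all chromosomes, and the cause was not tested. Of the regions that followed genotype, 1 knockout-only region lay between the constant genes and IGCR1, 2 in proximal V and 3 in distal V, while 1 WT-only region lay at the 3' end and 3 in distal V. None of the 10 lay in middle V. With 1 knockout library left out, the class of regions called in the other and in neither WT library counted 11 (knockout 1) and 18 (knockout 2). The shares of these larger classes over all chromosomes were not computed. Regions called in knockout 1 alone were 3.57% of Igh regions, against 10.9% of all regions. Those called in knockout 2 alone were 8.57%, against 9.13%.

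The knockout-only regions ranged from percentile 2.53 to 75.8 of fold in knockout 1 and from 23.8 to 95.0 in knockout 2. The highest pair belonged to 116343660 to 116343957, with a fold of 4.91 in each knockout library, at percentiles 75.8 and 95.0, and a −log10 q of 3.67 and 4.24. In proximal V the knockout-only regions were 115064539 to 115065072 (folds 4.46 and 3.78) and 115252392 to 115252998 (4.20 and 3.32), the latter with its centre 1.59 kb from that of a region called in all libraries. In distal V 116460909 to 116461420 had folds of 4.22 and 3.71, and 117100031 to 117100443 had 3.42 and 3.60. The region between the constant genes and IGCR1, 114685715 to 114686379, had 3.13 and 4.27, which are percentiles 2.53 and 80.8 of the knockout lists. None of the 6 reached a −log10 q of 5 in either library, a level that 1.51% (knockout 1) and 1.13% (knockout 2) of the 1058 knockout-only regions on all chromosomes reached.

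Of the WT-only regions, 116933886 to 116934314 was strongest, with folds of 5.56 and 4.76 and a −log10 q of 5.49 and 3.70. It was the one region following genotype that passed a −log10 q of 5 in any list. At 116435603 to 116435894 the folds were 4.11 and 4.54, and at 117003164 to 117003839 they were 3.43 and 3.26, with percentiles of 13.1 and 7.34. The WT-only region of the 3' end, 114495489 to 114496183, had folds of 3.58 and 3.42 at percentiles 21.1 and 14.3. An absent peak in a list does not show absent binding, since the read depth of the lists is unknown.

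At the 79 shared regions, ranks by fold were lower in knockout libraries more often than higher. The median percentile was 76.6 and 74.0 in WT, 72.2 in knockout 1 and 55.2 in knockout 2, a difference of −11.6 between the genotypes (exact permutation test, p = 0.333, adjusted p = 1). Without knockout 2 the difference was −3.17, and by the percentile of −log10 p, an alternative chosen after seeing the data, it was −0.33. Both knockout percentiles of fold lay below both WT percentiles at 20 regions (25.3%, against 16.1% of shared regions on all chromosomes) and above both at 5 (6.33%, against 18.7%). Of the 20, 13 were among the 37 shared regions of distal V, 5 among the 19 of proximal V and 2 among the 13 of middle V. By the percentile of −log10 p, 10 regions lay below (15.3% on all chromosomes) and 12 above (19.9%), so lower ranks outnumbered higher ones in fold but not in significance. Taken singly, knockout 1 was below both WT libraries in fold percentile at 26 regions (32.9%, against 26.7% on all chromosomes) and above both at 25 (31.6%, against 40.2%). Knockout 2 was below at 48 (60.8%, against 40.0%) and above at 11 (13.9%, against 32.4%).

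**Figure D4:**
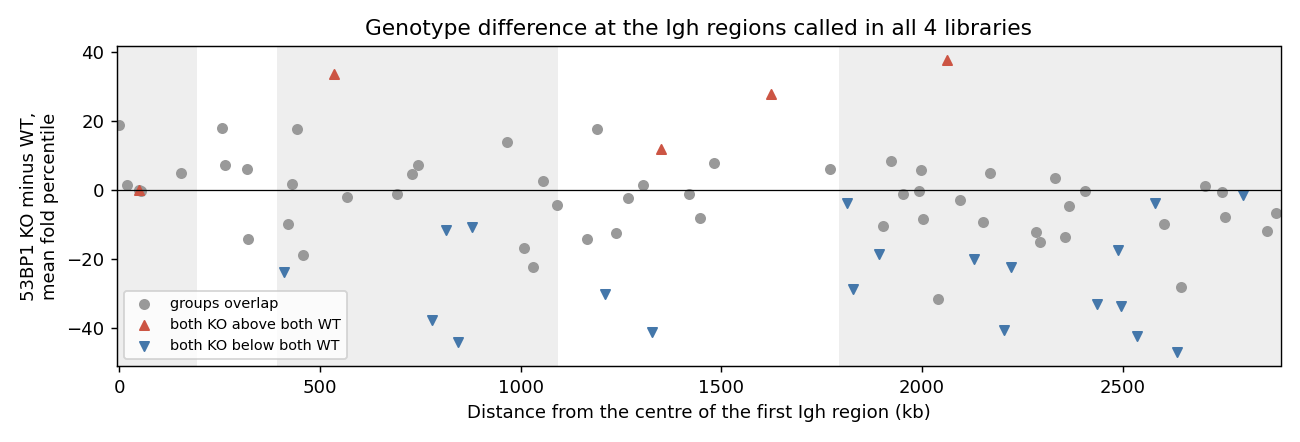
Knockout minus WT difference of the mean fold percentile (vertical axis) at the 79 Igh regions called in all 4 libraries, by distance in kb from the centre of the first region; triangles mark the 25 regions where the 2 knockout percentiles were both higher or both lower than the 2 WT percentiles. The 20 downward triangles include 13 in distal V, which holds 37 of the 79 regions. Of the 5 upward triangles, 1, at the 3' end, lies on the zero line.

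Single regions with separated ranks were found in both directions. Of the regions lower in knockout lists, 116941718 to 116942312 had the widest gap, with folds of 4.37 and 4.23 (WT) and 3.52 and 3.22 (knockout) and percentiles of 62.4 and 58.3 against 19.2 and 16.8. At 116611045 to 116611993 the folds were 6.06 and 5.44 against 4.38 and 3.64, and the −log10 p values were 10.0 and 9.52 against 6.14 and 6.34. At 115185931 to 115186788 in proximal V the folds were 4.16 and 3.97 against 3.496 and 2.93. Of the regions higher in knockout lists, 114939790 to 114940901 in proximal V had 3.61 and 3.87 (WT) and 4.45 and 3.97 (knockout). At 116467962 to 116468740 in distal V the folds were 3.75 and 3.67 against 4.13 and 4.44, and at 116028940 to 116030025 in middle V 3.70 and 3.55 against 4.00 and 3.87. These 6 regions, chosen for their gaps in fold percentile, were also separated in their percentiles of −log10 p, in the same direction. Both values come from the same peaks, so the second is no separate evidence. No p was computed for a single region.

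Igh was last set beside the kappa light chain locus Igk (67.4 to 70.8 Mb of chromosome 6) and the joint T cell receptor locus of Tcra and Tcrd (52.9 to 54.9 Mb of chromosome 14), both in approximate mm9 windows. Igh held more peaks per Mb than either in each of the 4 libraries. Its density was 37.2 and 37.2 (WT) and 35.5 and 39.3 (knockout) peaks per Mb, against 29.7, 28.5, 32.1 and 30.6 for Igk and 32.0, 30.5, 34.0 and 36.0 for Tcra and Tcrd. The mean difference was 7.11 ± 2.50 peaks per Mb to Igk and 4.20 ± 2.28 to Tcra and Tcrd (SD, n = 4 libraries). Each had a two-sided exact sign-flip permutation p of 0.125, the lowest that 4 libraries allow (adjusted over the 2 loci 0.125), so neither can pass 0.05. The differences in knockout 1, 3.46 and 1.52, were the smallest of the 4 libraries in both cases.

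Regions called in all libraries made up 56.4% of Igh regions, 36.6% of the 161 in Igk and 45.7% of the 94 in Tcra and Tcrd. Shared regions with both knockout fold percentiles below both WT percentiles came to 25.3% for Igh, 32.2% for Igk and 25.6% for the Tcra and Tcrd window, and those above were 6.33%, 13.6% and 18.6%. By fold, the larger share of lower than of higher ranks was thus present in all 3 loci, while on all chromosomes 16.1% were below and 18.7% above. By −log10 p, Igh had 10 regions below and 12 above, and the other loci were not examined. The shares of the 3 loci were not tested against each other, since regions of one library share their source.

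**Figure D5:**
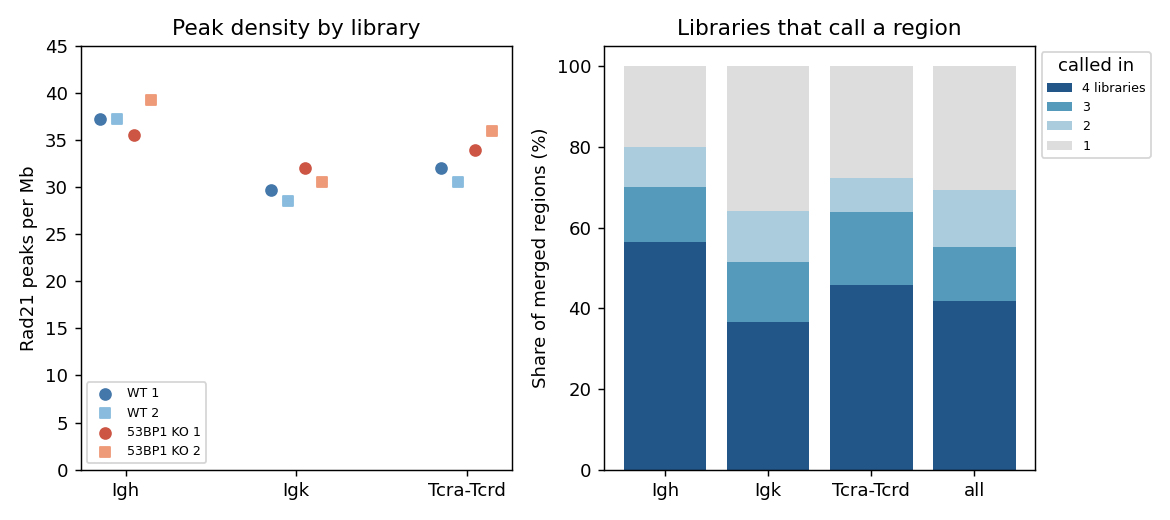
Left, Rad21 peaks per Mb in the windows of Igh, Igk and Tcra with Tcrd, 1 point per library (blue WT, red 53BP1 knockout); right, share in percent of merged regions called in 4, 3, 2 or 1 libraries in the 3 loci and on all chromosomes. Igh had the highest density in each library and the highest share of regions called in all 4 libraries, 56.4%.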

How the data were processed

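Chromatin immunoprecipitation of Rad21 was analysed in 4 libraries (2 WT, 2 53BP1 knockout), grouped by their titles. Per the labels' protocols, cells were fixed, sonicated and immunoprecipitated, and adapters were added by a transposase on the beads. Tools in the submitters' processing notes are MACS2 2.2.7.1, Bowtie2 2.4.4, deepTools 3.5.1 and SAMtools 1.15.1, with build mm9. Caller parameters, mapping filters and any input control: not given in the sources used here. The authors deposited 1 list of broad peaks per library, with 9 columns and no header. The deposited fold is a ratio of signal to local background, the deposited −log10 p and −log10 q are the caller's values per peak, and the deposited score, not used further, follows −log10 q. Depth is unknown, so no counting error can be given.

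Peaks that touched were merged with pandas 2.3.3 (Python 3.11.15), and a region counted as called in a library with 1 bp of overlap. Where a library had several peaks in a region, the one with the highest fold was used. Positions are 1-based. No region crossed the edges of the window. Peaks on sequences other than the 19 autosomes and X, 7 in all, were left out. The lists of WT 1 and knockout 1 carry the same prefix, and those of WT 2 and knockout 2 share another. What the prefix stands for is not stated. Replicate numbers were not taken to pair the libraries, since differences between replicates correlated at 0.04 between the genotypes over 1 Mb windows. That correlation does not show that libraries of the same prefix were handled apart. Group means were compared with exact permutation tests. The merging and the classes were tested on simulated data. Alternatives were other thresholds on fold and −log10 q, lists of equal length, a merging distance of 1 kb, a 50% cover, a replicate block and leaving out each library. Named regions are, per part, the 3 with the highest minimum percentile of fold and the widest, all that followed genotype, up to 3 per direction with separated percentiles, the 5 longest stretches and the longest runs by number of regions (9 runs tied for the third place, of which 1 is named). Regions beside these, 114443649 to 114444183 and 116690672 to 116691587 were named after their values were seen. The parts, regions and lists were chosen with earlier results of these data known.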

Additional observations from a re-analysis of the deposited data

How the results depend on the processing

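Beside leaving out libraries, 70 values of 16 results were recomputed under other settings, and 9 changed sign and 9 counts moved by over 1.5 times. Of the 70, 10 came from the replicate block described below and could not change. Differences that went to or from 0 were not counted as changes of sign, and changes in size without a change of sign were not counted. Above a −log10 q of 5, the genotypes differed by −4.5 Igh peaks (knockout less WT), 0.55 peaks per 1000 of the list, 0.5 peaks at the 3' end and −0.5 in proximal V, with 20 regions in all libraries, 0 knockout-only regions and 8 with separated percentiles. With a fold of at least 4 the differences were −13.5 peaks, −5.63 kb, 0.5 peaks at the 3' end and −2 in proximal V, with 22 regions in all libraries, 3 knockout-only, 7 WT-only and 6 separated. In distal V the differences under these 2 settings were −5 and −7.5 peaks. A fold of 4 lies above the median fold of the knockout 2 list, 3.67, and below those of the other lists, 4.06 to 4.15. With lists cut to equal length the difference was −1.5 Igh peaks. When peaks had to cover 50% of a region, 44 regions were in all libraries and 10 were separated. For none of these counts of regions was the share over all chromosomes under the same setting computed. Fewer peaks enter under the first 2 settings. The cause of the other changes was not tested. In the replicate block, differences within replicate numbers were averaged, which equals the difference of means (0.5 Igh peaks) by construction, and no call changed.

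Leaving out each library in turn gave differences of −5 to 6 Igh peaks, −0.611 to 21.95 kb, −0.71 to 0.20 peaks per 1000 and −1.5 to 150 bp of width. In distal V, with no difference over all libraries, it gave −5.5 to 5.5 peaks. Sign changes came without knockout 2 for peaks, length and width, and without knockout 1 for peaks per 1000. Knockout-only regions numbered 8 to 18, WT-only 8 to 11 and separated ones 48 to 64, since a class then asks for 1 library fewer. The shares of these classes over all chromosomes were not computed. Regions in all libraries numbered 81 to 87. Unknown read depth limits every count of peaks.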
